A study of Mus musculus with 48 samples.

Results

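Fos, Fosl2, Jun, Junb, Jund, Egr1, Egr2 and Myc are 8 of the 49568 genes in the deposited count table of RAW264.7 cells, and they were taken from it by gene symbol. They were followed across 8 groups of cells: PBS, the peptides LE, SE and PE, IFN-γ (labelled IFNy), and each peptide with IFN-γ (labelled LE+IFNy, SE+IFNy and PE+IFNy). RAW264.7 is a mouse macrophage line from an Abelson leukaemia virus tumour of a BALB/c mouse, so all groups are 1 transformed line. The peptides are synthetic and 15 residues long, and copy positions 65 to 79 of the human HLA-DRβ chain: LE that of the lupus risk allele DRB1*0301, SE that of the rheumatoid arthritis risk allele DRB1*0401, and PE that of the protective allele DRB1*0402. They were given at 100 µg/ml and IFN-γ at 5 ng/ml, in medium renewed at 48 h, and RNA was taken at 72 h. The comparisons ask how the allelic peptides act on macrophages alone and in the presence of IFN-γ.

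Immediate-early genes are transcribed within minutes of a stimulus from factors already present in the cell, and most of their transcripts are short-lived. Fos and Fosl2 proteins pair with Jun, Junb or Jund proteins to form AP-1, which binds DNA as a dimer. Egr1 and Egr2 encode zinc finger factors that bind GC-rich sites, and Myc encodes a factor that pairs with MAX and acts on genes of growth and metabolism. In macrophages these factors follow growth factor, cytokine and pattern recognition signals, and Fos takes part in osteoclast formation. A single late time point, as here, measures their level at 72 h, and neither their first peak nor whether that level was sustained.

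The stretches before the start sites of Jun, Egr2 and Fos are shown because the first pair rose with LE and with SE on top of IFN-γ while Fos did not pass the test in those comparisons. Each is the 200 bases before the RefSeq start (GRCm38.p6), printed in the direction of the gene, with matches to the motifs searched in capitals. Jun is read from the minus strand of chr4:95052223-95052422, Egr2 from the plus strand of chr10:67537669-67537868 and Fos from the plus strand of chr12:85473690-85473889.
Jun: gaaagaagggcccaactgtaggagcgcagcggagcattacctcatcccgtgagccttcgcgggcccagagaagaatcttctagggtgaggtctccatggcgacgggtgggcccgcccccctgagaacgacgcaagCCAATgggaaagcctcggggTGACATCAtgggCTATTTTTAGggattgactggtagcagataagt
Egr2: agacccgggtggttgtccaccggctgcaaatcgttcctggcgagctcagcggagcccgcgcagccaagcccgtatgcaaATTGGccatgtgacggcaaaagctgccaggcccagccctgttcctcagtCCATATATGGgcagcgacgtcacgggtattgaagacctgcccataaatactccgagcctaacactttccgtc
Fos: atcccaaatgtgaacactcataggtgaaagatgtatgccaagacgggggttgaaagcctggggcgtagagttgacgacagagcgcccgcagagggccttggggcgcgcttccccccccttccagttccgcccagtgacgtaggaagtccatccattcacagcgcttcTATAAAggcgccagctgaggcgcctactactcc

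In the Jun stretch the capitals mark, from left to right, a CCAAT box (CCAAT), the ATF or AP-1 octamer (TGACNTCA) and a MEF2 site. In the Egr2 stretch they mark a CCAAT box on the opposite strand and a CArG box, the site of serum response factor. In the Fos stretch they mark a TATA box (TATAAA). The other motifs searched were AP-1 (TGANTCA), CRE (TGACGTCA, which the octamer contains), the E-box (CACGTG), the EGR site (GCGTGGGCG), GAS (TTCNNNGAA) and the NF-κB site, all on both strands, and none of these letters lies in the 3 stretches. Of all 32817 mouse windows of the same length, 29.3% held a CCAAT box, 6.62% the octamer, 2.29% a MEF2 site, 1.19% a CArG box and 9.96% the TATA box. For the motifs without a match in the 3 stretches the shares were 5.48% for AP-1, 1.47% for CRE, 5.26% for the E-box, 0.491% for EGR, 5.48% for GAS and 3.18% for NF-κB. A match is a run of letters and was not tested as a binding site. Bases farther upstream than these 200 were not searched, so a motif without a match here may lie beyond the stretch. The table of promoters held 6 of the 8 genes, without Egr1 and Myc.

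In GENCODE M21 (GRCm38), Jun is a gene of 1 exon at chr4:95049034-95052222, Fos lies at chr12:85473890-85477273 and Egr2 at chr10:67535475-67542188. The Egr2 stretch shown above lies inside that span, so this annotation also holds an Egr2 start farther upstream than the RefSeq start used. Exons of Jun share 232 bases with the antisense gene Junos, Jund shares 877 bases with Gm11175 and Junb shares 173 bases with Prdx2, each on the opposite strand. The libraries were stranded, but the strand setting of the counting is not given in the sources used here. Junos had 12 to 36 counts per library where Jun had 682 to 2385, Gm11175 had 10 to 38 where Jund had 1768 to 2900, and Prdx2, at 2834 to 5881, was about as highly counted as Junb, at 2558 to 3816, so the Junb counts carry that uncertainty.

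The 48 libraries carry labels of 2 kinds, and the comparisons rest on the 24 letter-labelled libraries, 3 per group, with 16.5 M to 26.9 M counts each (M for mega). The mean of 20 known IFN-γ target genes, on the log2(CPM + 0.5) scale, was 6.54 to 7.01 in the letter-labelled libraries with IFN-γ and 1.66 to 1.87 in those without, and in 12 of the 24 libraries with an HLA label it went against the label. In the deposited table the columns of the libraries with an HLA label also stand beside letter columns of other groups than their labels give. Those that follow letter columns with IFN-γ had means of these target genes from 6.4 to 7.26. Those that follow letter columns without IFN-γ had means from 1.57 to 1.97. So which group each of the libraries with an HLA label belongs to is uncertain, and they were kept as labelled. CPM is the count per mega of counts after TMM scaling, which adjusts for a few genes taking much of a library. All 10 macrophage markers were found in every letter-labelled library, and T cell, B cell, fibroblast and epithelial markers summed to at most 1.84 CPM per list. The labels do not say that libraries came from separate cultures. The study describes 6 biological replicates spread over 2 independent experiments, without saying which libraries came from which experiment. The 3 letter-labelled libraries of a group may therefore come from the same experiment. The p-values measure the spread between libraries, whatever its source.

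The 8 genes differed widely in level. Per kilobase of exon, Junb and Jund were the most abundant in PBS, at 66.4 ± 10.3 and 58.7 ± 6.29 CPM per kb (SD, n = 3). Jun followed at 28.4 ± 1.14, Fos at 9.88 ± 2.40 and Fosl2 at 5.91 ± 0.508 CPM per kb. Egr1, Myc and Egr2 were lowest, at 2.06 ± 0.454, 1.27 ± 0.702 and 0.893 ± 0.130 CPM per kb. With LE and IFN-γ the order changed: Myc reached 23.4 ± 1.59 CPM per kb, after Junb at 52.4 ± 2.24 and Jund at 45.8 ± 0.627, and above Jun at 19.3 ± 2.37.

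**Figure D1:**
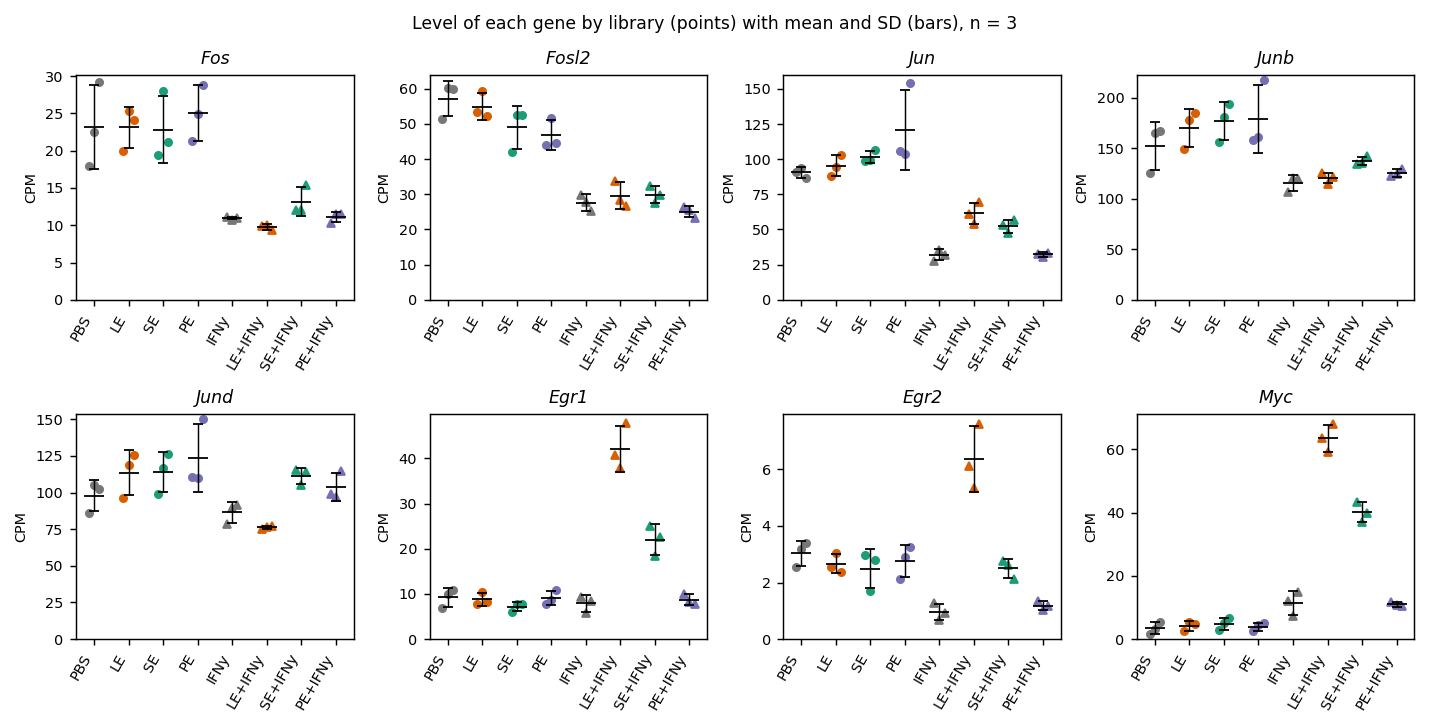
CPM of each gene (y axes, from 0) in the 8 groups (x axes), with 1 point per letter-labelled library and bars for mean and SD, n = 3. Circles are groups without and triangles groups with IFN-γ. Egr1, Egr2 and Myc stand highest with LE and IFN-γ (means of 42.1, 6.36 and 63.6 CPM), and Fos, Fosl2 and Jun are lower in all groups with IFN-γ than in those without.

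IFN-γ alone was compared with PBS first. After 72 h of IFN-γ, Myc was 3.30-fold higher, while Jun, Egr2, Fos and Fosl2 fell to between 0.319 and 0.484 of their PBS level. Junb passed the p threshold with a change under the fold minimum, and Jund and Egr1 did not pass the test. Of the 8 genes 1 rose and 4 fell, where 18.1% of all 12242 genes tested were called, 9.79% higher and 8.28% lower. A gene was called at an adjusted p under 0.05 (edgeR quasi-likelihood test, Benjamini-Hochberg over all genes tested) and a fold over 1.5.

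Myc measured 1.69, 3.19 and 5.48 CPM in the PBS libraries and 11.9, 7.33 and 14.8 CPM in the IFN-γ libraries. All IFN-γ libraries lay above all PBS libraries, but the PBS libraries were themselves spread widely. The difference was 1.72 ± 0.35 on the log2 scale (SE, adjusted p = 2.1e-03).

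Jun, the founding Jun family member, measured 91.1, 93.9 and 86.7 CPM with PBS and 27.9, 35.8 and 32.0 CPM with IFN-γ. Every IFN-γ library lay far below the lowest PBS library. Its log2 change was -1.505 ± 0.095 (adjusted p = 3.1e-07). Egr2, a factor of the alternative macrophage programme, was low throughout, at 2.54, 3.19 and 3.38 CPM with PBS and 1.27, 0.678 and 0.938 CPM with IFN-γ, the latter from 17 to 32 counts per library. These groups did not overlap either, with a log2 change of -1.65 ± 0.28 (adjusted p = 6.8e-04).

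Among the Fos family, Fos measured 18, 22.4 and 29.2 CPM with PBS and 11.1, 10.8 and 11 CPM with IFN-γ, a log2 change of -1.08 ± 0.16 (adjusted p = 2.2e-04). Fosl2 measured 51.5, 60.2 and 59.8 CPM with PBS and 29.9, 27.8 and 25.1 CPM with IFN-γ, a log2 change of -1.05 ± 0.10 (adjusted p = 7.3e-06). Neither gene's groups overlapped, and the IFN-γ libraries of Fos were close together. Junb changed by -0.40 ± 0.10 on the log2 scale (adjusted p = 0.011), Jund by -0.18 ± 0.09 (adjusted p = 0.15) and Egr1 by -0.23 ± 0.20 (adjusted p = 0.40). In these whole cultures a change in the number of cells that carry a transcript and a change per cell cannot be told apart. The summed level of the macrophage markers was also lower with IFN-γ, at 11200 to 13400 CPM against 14900 to 20500 CPM in the libraries without it. The mean of the 10 markers on the log2(CPM + 0.5) scale overlapped, at 9.39 to 9.67 with IFN-γ and 9.43 to 9.72 without. With IFN-γ against PBS, Adgre1 (0.77) and Fcgr1 (1.55) were called higher and Tyrobp (-0.60) lower among them, and their part in the differences of the 8 genes was not tested.

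The effect of each peptide in the absence of IFN-γ was taken against PBS. None of the 8 genes was called with LE, SE or PE by edgeR or DESeq2, where 0.0242%, 1.92% and 3.13% of the 12420 genes tested were called. At an unadjusted p under 0.05, LE had 0, SE 1 (Fosl2) and PE 3 of the 8 genes (Fosl2, Jun and Jund). Jun with PE was the single gene with an adjusted p under 0.05 (0.029). It measured 106, 104 and 154 CPM with PE, above all PBS libraries, and its log2 change of 0.40 ± 0.12 lay under the fold minimum. The library at 154 CPM also had the highest Junb (218 CPM) and Jund (150 CPM) of its group and the lowest total count of the 24 libraries. For Myc, whose PBS libraries were spread, the interval of the LE difference ran from -0.53 to 1.07 on the log2 scale. A rise or fall within that range could therefore not be excluded.

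In Model A each peptide with IFN-γ was compared with IFN-γ alone, which shows what the peptide adds to the cytokine. With LE, Egr2, Myc and Egr1 rose 6.55-, 5.64- and 5.34-fold and Jun 1.93-fold. With SE the same 4 genes rose, Myc 3.55-, Egr1 2.78-, Egr2 2.57- and Jun 1.64-fold. With PE none was called by edgeR or by DESeq2, and 2 (Junb and Jund) had an unadjusted p under 0.05. Fos, Fosl2, Junb and Jund were not called with any of the 3 peptides. The share of all 12720 genes tested that was called was 15.5% for LE (9.58% higher), 7.39% for SE (5.01% higher) and 0.629% for PE (0.448% higher). The 3 comparisons share the IFN-γ libraries and so are not independent. Of the markers of other cell types, 1 was tested in Model A, the fibroblast marker Pdgfra. Its log2 change was 1.51 ± 0.36 with LE (adjusted p = 2.1e-03), 1.65 ± 0.36 with SE (adjusted p = 1.6e-03) and -0.18 ± 0.45 with PE (adjusted p = 0.83). All 5 fibroblast markers together summed to 0.789 to 1.84 CPM with LE or SE and IFN-γ. They summed to 0.282 to 0.598 CPM with IFN-γ alone or with PE and IFN-γ. The mean of the 10 macrophage markers, on the log2(CPM + 0.5) scale, was 9.59 to 9.67 with LE and IFN-γ. It was 9.63 to 9.65 with SE and IFN-γ, 9.39 to 9.51 with IFN-γ alone and 9.41 to 9.43 with PE and IFN-γ. The part of either list in the result was not tested.

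Egr1, a zinc finger factor induced through serum response factor, measured 9.30, 5.86 and 8.49 CPM with IFN-γ, 40.7, 37.9 and 47.8 CPM with LE and IFN-γ, 25.1, 18.3 and 22.6 CPM with SE and IFN-γ, and 10.04, 8.27 and 7.82 CPM with PE and IFN-γ. The LE libraries were the highest, the SE libraries lay between, and the PE libraries overlapped those with IFN-γ alone. The log2 change was 2.42 ± 0.15 with LE (adjusted p = 8.6e-10), 1.48 ± 0.15 with SE (adjusted p = 8.0e-07) and 0.15 ± 0.16 with PE (adjusted p = 0.60).

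Egr2 measured 6.13, 5.32 and 7.62 CPM with LE and IFN-γ, 2.75, 2.63 and 2.12 CPM with SE and IFN-γ, and 1.34, 1.02 and 1.16 CPM with PE and IFN-γ. The LE libraries exceeded every other library of the series of 24, while the SE libraries lay in the range of the groups without IFN-γ. The log2 change against IFN-γ was 2.71 ± 0.22 with LE (adjusted p = 2.2e-08), 1.36 ± 0.24 with SE (adjusted p = 2.7e-04) and 0.28 ± 0.27 with PE (adjusted p = 0.53). With PE its interval ran from -0.25 to 0.81.

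Myc measured 63.4, 59.3 and 67.9 CPM with LE and IFN-γ, 43.4, 37.1 and 39.9 CPM with SE and IFN-γ, and 11.9, 10.8 and 10.3 CPM with PE and IFN-γ. LE, SE and the pair of PE and IFN-γ alone formed 3 separate levels. The log2 change was 2.50 ± 0.15 with LE (adjusted p = 6.5e-10), 1.83 ± 0.15 with SE (adjusted p = 5.6e-08) and -0.03 ± 0.16 with PE (adjusted p = 0.93). Against PBS the group means of Myc with LE and IFN-γ and with SE and IFN-γ stood at 1840% and 1160%, and with IFN-γ alone at 329%.

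Jun measured 61.4, 54.2 and 69.3 CPM with LE and IFN-γ, 53.2, 47.3 and 56.5 CPM with SE and IFN-γ, and 32.5, 30.5 and 33.6 CPM with PE and IFN-γ. Both LE and SE libraries lay above all IFN-γ libraries and below all libraries without IFN-γ. The log2 change was 0.95 ± 0.10 with LE (adjusted p = 3.1e-07), 0.71 ± 0.10 with SE (adjusted p = 2.0e-05) and 0.02 ± 0.10 with PE (adjusted p = 0.93). Jun with LE and IFN-γ stood at 68% of its PBS mean, with SE and IFN-γ at 57.8%, with PE and IFN-γ at 35.6% and with IFN-γ alone at 35.2%.

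The other 4 AP-1 genes differed little from their level with IFN-γ alone. Jund measured 75.3, 76.4 and 77.4 CPM with LE and IFN-γ against 78.4, 89.8 and 91.6 CPM with IFN-γ, and 115, 105 and 114 CPM with SE and IFN-γ. Its LE libraries lay below and its SE libraries above those of IFN-γ alone, with log2 differences of -0.18 ± 0.07 (adjusted p = 0.038) and 0.36 ± 0.07 (adjusted p = 6.7e-04), both under the fold minimum. Junb with SE (0.24 ± 0.06, adjusted p = 2.9e-03) and Jund with PE (0.26 ± 0.07, adjusted p = 0.027) were also under it. Fos had log2 differences of -0.17 ± 0.10 with LE, 0.26 ± 0.10 with SE and 0.03 ± 0.10 with PE, and those of Fosl2 were 0.10 ± 0.10, 0.10 ± 0.10 and -0.14 ± 0.10, with adjusted p-values from 0.058 to 0.89.

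**Figure D2:**
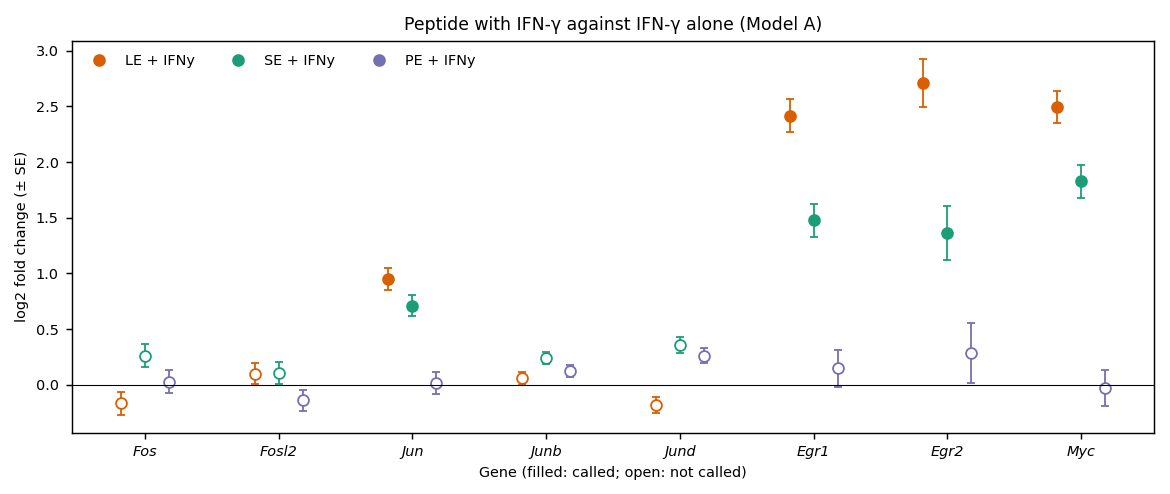
Log2 fold change of each gene against IFN-γ alone (y axis) for the peptides with IFN-γ, with bars of 1 SE and filled points for called genes. Egr1, Egr2 and Myc lie at 2.42 to 2.71 with LE and at 1.36 to 1.83 with SE, Jun at 0.95 and 0.71, and no PE point is filled.

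The next comparison set LE, SE and PE against one another with IFN-γ in the medium, at the same dose and time. LE exceeded SE for Egr2, Egr1 and Myc, 2.55-, 1.92- and 1.59-fold, and these 3 of the 8 genes were called higher where 4.93% of the genes tested were called (3.31% higher). No LE library overlapped an SE library for these genes. The log2 differences were 1.35 ± 0.19 for Egr2 (adjusted p = 8.1e-05), 0.94 ± 0.13 for Egr1 (adjusted p = 7.8e-05) and 0.67 ± 0.13 for Myc (adjusted p = 1.0e-03). Jun differed by 0.24 ± 0.09 (adjusted p = 0.055), with an interval from 0.06 to 0.42. Fos (-0.43 ± 0.10), Jund (-0.54 ± 0.07) and Junb (-0.18 ± 0.06) were lower with LE than with SE, with adjusted p-values of 4.1e-03, 3.8e-05 and 0.018 but under the fold minimum. Fosl2 differed by -0.01 ± 0.09, with an interval from -0.19 to 0.18.

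Against PE, LE was higher for Myc, Egr2, Egr1 and Jun, with log2 differences of 2.52 ± 0.15, 2.43 ± 0.21, 2.27 ± 0.15 and 0.93 ± 0.10, so 4 of the 8 genes were called where 21.6% of all genes were (12.7% higher). SE was higher than PE for the same 4 genes, with log2 differences of 1.86 ± 0.15, 1.08 ± 0.23, 1.33 ± 0.15 and 0.69 ± 0.10, where 7.59% of all genes were called (5.25% higher). Adjusted p-values of these differences were at most 2.8e-07 for LE and at most 1.6e-03 for SE.

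In Model B each peptide with IFN-γ was compared with the same peptide alone, which gives the IFN-γ effect in cells that hold the peptide. Myc rose with IFN-γ with each peptide, 15.4-fold with LE, 8.43-fold with SE and 2.85-fold with PE. Fos, Fosl2 and Jun fell with each peptide. Egr1 rose with LE and SE and was not called with PE, and Egr2 rose with LE, was not called with SE and fell with PE. With LE 3 genes rose and 3 fell, with SE 2 rose and 3 fell, and with PE 1 rose and 4 fell. Over all 12947 genes tested 35.1%, 26.3% and 21.0% were called, of which 19.1%, 15.1% and 12.1% higher and 15.9%, 11.3% and 8.82% lower.

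Egr2 shows the spread between the peptides. It measured 2.56, 3.04 and 2.38 CPM with LE alone, 2.97, 1.71 and 2.79 CPM with SE alone and 2.13, 2.91 and 3.24 CPM with PE alone. Set against the values with IFN-γ given above, the LE libraries were higher with IFN-γ without overlap, the SE libraries overlapped and the PE libraries were lower without overlap. The log2 IFN-γ effect was 1.25 ± 0.20 with LE (adjusted p = 1.6e-05), -0.02 ± 0.22 with SE (adjusted p = 0.95) and -1.22 ± 0.24 with PE (adjusted p = 3.0e-04). The interval with SE ran from -0.45 to 0.41.

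Egr1 measured 7.72, 10.5 and 8.14 CPM with LE alone, 5.97, 7.71 and 7.76 CPM with SE alone and 7.86, 8.73 and 10.8 CPM with PE alone. LE alone overlapped both other groups, and SE alone lay just below PE alone. Its IFN-γ effect was 2.26 ± 0.15 on the log2 scale with LE (adjusted p = 3.7e-11), 1.63 ± 0.15 with SE (adjusted p = 1.5e-08) and -0.05 ± 0.16 with PE (adjusted p = 0.82). Myc measured 2.43, 5.33 and 4.82 CPM with LE alone, 2.88, 4.94 and 6.64 CPM with SE alone and 2.47, 4.39 and 4.93 CPM with PE alone. All of these lay below every library with IFN-γ. Its log2 IFN-γ effect was 3.94 ± 0.22 with LE (adjusted p = 4.5e-12), 3.08 ± 0.22 with SE (adjusted p = 2.6e-10) and 1.51 ± 0.24 with PE (adjusted p = 2.9e-05).

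Jun measured 88.4, 94.6 and 103 CPM with LE alone, and 98.3, 99.4 and 106 CPM with SE alone. Its log2 IFN-γ effect was -0.63 ± 0.12 with LE (adjusted p = 7.7e-05), -0.96 ± 0.12 with SE (adjusted p = 6.4e-07) and -1.90 ± 0.12 with PE (adjusted p = 5.7e-11). The fall with LE was close to the fold minimum, and without LE replicate 3 (-0.57) or without LE+IFNy replicate 2 (-0.54) it no longer reached it. Fos fell by 1.24, 0.79 and 1.16 on the log2 scale with LE, SE and PE, and Fosl2 fell by 0.89, 0.72 and 0.89. In both genes every library with IFN-γ lay below every library without. Junb had differences of -0.50, -0.37 and -0.50 on the log2 scale and Jund of -0.57, -0.04 and -0.24, none of them past the fold minimum.

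**Figure D3:**
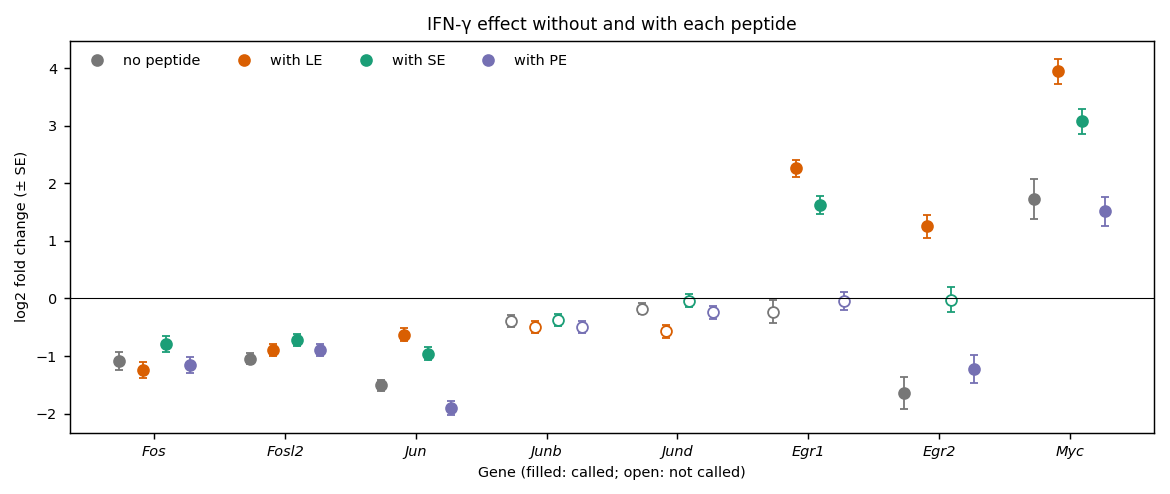
Log2 IFN-γ effect on each gene (y axis) without a peptide and with LE, SE or PE, with bars of 1 SE and filled points for called genes. Fos and Fosl2 lie between -1.24 and -0.72 in all 4 settings, while Egr2 runs from -1.65 without a peptide to 1.25 with LE.

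The interaction tested whether the IFN-γ effect differed with and without a peptide, in 1 fit of the 8 groups. With LE it was positive for Egr2, Egr1, Myc and Jun, at 2.90 ± 0.33, 2.49 ± 0.25, 2.21 ± 0.44 and 0.88 ± 0.17 on the log2 scale (adjusted p = 5.1e-07, 1.3e-07, 3.4e-04 and 2.3e-04), so 4 of the 8 genes were called where 18.9% of the 13096 genes tested were (11.3% positive). With SE it was called for Egr1 at 1.86 ± 0.26, Egr2 at 1.64 ± 0.34 and Myc at 1.35 ± 0.43 (adjusted p = 2.0e-05, 1.4e-03 and 0.029), where 7.96% of all genes were (5.08% positive). The Myc call with SE rested on single libraries. It was 0.86 (adjusted p = 0.19) without PBS replicate 3, and it was also lost without SE replicate 1 (1.05), IFNy replicate 2 (1.11) or SE+IFNy replicate 1 (1.29). Jun with SE was 0.55 ± 0.17 (adjusted p = 0.020), under the fold minimum, and was called without IFNy replicate 2, SE replicate 3 or SE+IFNy replicate 2. With PE no gene was called by edgeR (0% of all genes tested) or by DESeq2, and 1073 genes had an unadjusted p under 0.05, of the 8 genes Jun alone, at -0.40 ± 0.17. The interactions of Fos and Fosl2 lay between -0.16 and 0.34 with the 3 peptides, all uncalled.

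Across the 8 groups the genes kept to a few orders. Egr1 and Myc had LE with IFN-γ highest and SE with IFN-γ second, each apart from its neighbours. For Egr1 the other 6 groups overlapped from one neighbour to the next, and for Myc IFN-γ alone and PE with IFN-γ overlapped each other and lay above the 4 groups without IFN-γ. Egr2 had LE with IFN-γ highest, a run of 5 overlapping groups that held SE with IFN-γ and all groups without it, and PE with IFN-γ and IFN-γ alone lowest. Jun had the 4 groups without IFN-γ highest, then LE and SE with IFN-γ, which overlapped, then PE with IFN-γ and IFN-γ alone, which overlapped too. Fos and Fosl2 had the 4 groups without IFN-γ highest and overlapping. Within the groups with IFN-γ, Fos with SE stood above and Fos with LE below the rest, and for Fosl2 the libraries with LE or SE lay above those with PE, while IFN-γ alone overlapped all 3 peptides.

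The genes with the most alike pattern were searched by Pearson's r of log2 CPM over the 24 libraries, which share 8 groups, among 8611 genes with a mean of at least 10 CPM. Myc was most like Cxcl2, a neutrophil chemokine, Plk2, a polo-like kinase, and Fyb, an adaptor protein, at r of 0.989, 0.986 and 0.983. Egr1 was most like Med15 (0.970), Bhlhe40 (0.964) and Runx1 (0.960), and Egr2 was most like Zak and Specc1 (both 0.927) and Bhlhe41 (0.923). Fos was most like Aldoc (0.963), Ldha and Cited2 (both 0.951), of which the first pair encode glycolytic enzymes. Jun was most like Nt5dc2 (0.976), Fam20c (0.975) and Glul (0.973), and Fosl2 was most like Npepps (0.966), Ppp1r12b (0.965) and Pam (0.964). Junb was most like Cdc42ep2 (0.974), Bsg (0.973) and Tpi1 (0.966), and Jund like Pgp (0.929), Eif3f (0.923) and Rpl13 (0.917).

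Genes of the same pathways were counted by list. With PE and IFN-γ against IFN-γ alone none of the lists below had a gene called by edgeR or by DESeq2. At an unadjusted p under 0.05 stood 8 of 28 other immediate-early genes, 4 of 13 AP-1 partners, 3 of 14 AP-1 targets, 9 of 35 MYC targets, 5 of 11 MYC network genes and 5 of 17 MAP kinase and serum response factor genes, where 3580 of all 12720 genes did.

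Of 28 other immediate-early genes tested, 9 rose and 2 fell with LE and IFN-γ against IFN-γ alone, where 15.5% of all genes were called (9.58% higher), with a list median of 0.22 on the log2 scale against -0.01 over all genes. The 4 with the largest rise were Gadd45b, a stress sensor, at 2.33 ± 0.10, Dusp1, a phosphatase of MAP kinases, at 2.21 ± 0.10, Plk2 at 1.96 ± 0.11 and Maff, a small Maf protein, at 1.76 ± 0.11. Nr4a2, a nuclear receptor, fell by 1.03 and Klf2, a zinc finger factor of quiescence, by 0.87 on the log2 scale. With SE 9 rose and 1 fell, where 7.39% of all genes were called (5.01% higher), led by Gadd45b at 2.11 ± 0.10, Dusp1 and Maff, both at 1.76, and Plk2 at 1.55 ± 0.11, and Nr4a2 fell by 0.90. Between LE and SE none of them was called by edgeR or DESeq2, while 10 had an unadjusted p under 0.05 and 8 an adjusted one under 0.05.

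**Figure D4:**
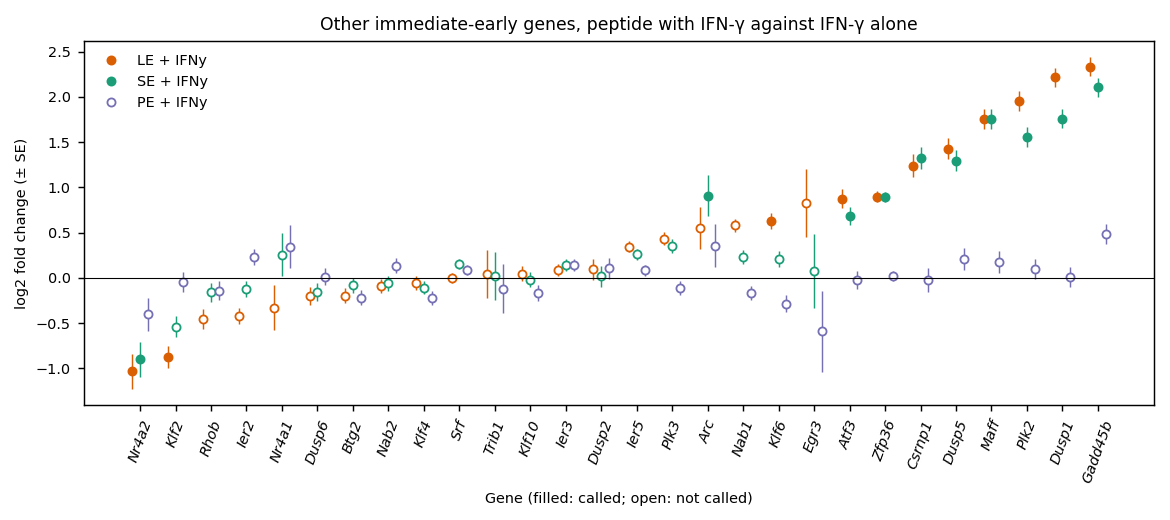
Log2 fold change against IFN-γ alone (y axis) of the 28 other immediate-early genes tested, ordered by the value with LE, with bars of 1 SE and filled points for called genes. The points of LE and SE reach 2.33 and 2.11 at Gadd45b, and no PE point is filled.

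With IFN-γ alone against PBS 8 of the 28 immediate-early genes rose and none fell, where 9.79% of all genes rose and 8.28% fell. The 4 with the largest rise were Dusp1 at 1.41 ± 0.17, Plk3 at 1.26 ± 0.15, Atf3 at 1.20 ± 0.17 and Plk2 at 1.17 ± 0.14 on the log2 scale. Of 12 AP-1 partners tested there, 6 rose and none fell, against the same shares of all genes. Those that rose included Batf2, an interferon-induced BATF factor, at 3.00 ± 0.15, Fosl1 at 1.35 ± 0.12 and Fosb at 1.30 ± 0.34. The list median was 0.89 against -0.01 over all genes. With LE or SE on top of IFN-γ, 2 of 13 AP-1 partners rose and none fell. Over all genes 9.58% rose with LE and 5.01% with SE. The 2 were Maff, at 1.76 with both, and Atf3, at 0.87 ± 0.10 and 0.68 ± 0.10. Maff and Atf3 are also in the list of other immediate-early genes, so the same rises are counted in both lists.

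Genes known as AP-1 targets in other cells were counted next, without any test that AP-1 acts on them here. With LE and IFN-γ 6 of 14 rose and none fell, where 9.58% of all genes rose, with a median of 0.56 against -0.01 over all genes, among them Tnf at 1.10 ± 0.08, Cd44 at 0.87 ± 0.08 and Mmp9 at 0.86 ± 0.13. With SE 5 of 14 rose and none fell, where 5.01% of all genes rose, with Il1b at 2.54 ± 0.51, Hmox1 at 1.08 ± 0.07 and Cd44 at 0.63 ± 0.08. With IFN-γ alone against PBS 5 of 13 rose and 3 fell, where 9.79% of all genes rose and 8.28% fell. Those that fell were Ctsk at -2.79 ± 0.11 and Acp5 at -2.27 ± 0.09, enzymes of the osteoclast, and Mmp9 at -1.72 ± 0.19, while Ccl2 rose by 1.77 ± 0.10.

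Of 35 known MYC targets, 2 rose and 2 fell with LE and IFN-γ, where 15.5% of all genes were called, with a list median of -0.16 against -0.01 over all genes. Odc1, the first enzyme of polyamine synthesis, rose by 1.23 ± 0.09 and Tfrc, the transferrin receptor, by 1.13 ± 0.08. Wdr74, a ribosome factor, was at -0.91 ± 0.33 and Srm, spermidine synthase, at -0.70 ± 0.06. With SE 1 of 35 rose (Odc1, 1.31 ± 0.09) and none fell, where 7.39% of all genes were called, and 17 had an adjusted p under 0.05 with a fold under the minimum, as did 19 with LE. With IFN-γ alone, where 18.1% of all genes were called, Ccnd2, a cyclin, rose by 3.05 ± 0.12, and Tfrc and Ldha fell by 1.24 and 1.12.

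Of 11 partners in the MYC network, 2 rose and 1 fell with LE and IFN-γ, where 15.5% of all genes were called. Mxd1, a MAX partner that opposes MYC, rose by 0.97 ± 0.09 and Zbtb17, which MYC binds, by 0.74 ± 0.06, while Mxd4, a relative of Mxd1, fell by 0.70. With SE Mxd1 rose by 0.68 ± 0.09 and Zbtb17 by 0.64 ± 0.06. With IFN-γ alone Mxd4, Mxi1 and Mycn fell by 0.94, 0.87 and 0.84. Of 17 MAP kinase and serum response factor genes tested in Model A none was called by edgeR or DESeq2 with LE or SE, where 15.5% and 7.39% of all genes were called by edgeR. At an unadjusted p under 0.05 stood 13 with LE and 9 with SE, and 11 with LE had an adjusted p under 0.05 with a fold under the minimum. Of 18 tested with IFN-γ alone 1 fell and none rose. It was Map2k6, a kinase below 1 CPM in both groups, which was named after its value (-2.22 ± 0.60, adjusted p = 0.012) was seen.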

How the data were processed

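Stranded libraries were prepared from 200 ng of RNA after poly(A) selection and sequenced as single-end reads of 100 bases. The authors counted uniquely mapped reads per gene with featureCounts on GENCODE M12 (GRCm38.p5) and deposited whole-number counts, without normalization, for 49568 genes and 48 libraries. The aligner is not given in the sources used here. Reads shared by several genes are lost to such counts.

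Groups came from the sample labels. The replicates with a letter label (1 to 3) were used. The libraries with an HLA label, of which 12 go against their IFN-γ label, enter 1 alternative. Tests used edgeR 4.0.16 (quasi-likelihood, TMM, filterByExpr) in R 4.3.3, and Benjamini-Hochberg adjustment over all genes tested. The fits held PBS and IFN-γ, the 4 groups without IFN-γ, the 4 groups of Model A, the 6 of Model B, or all 8 for interactions. Intervals are nominally 95%, by a normal approximation from the estimate and its SE. They leave out the few degrees of freedom of the test and so are narrower than the test implies. CPM used TMM over the 24 libraries and, per kb, the GENCODE M21 exon union. Scripts were tested on simulated data.

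The genes and lists were chosen with earlier results of these data known. From each list the text names at most 4 rising and 4 falling genes, by called fold, with at least 1 CPM in 1 group (Map2k6 and the cell type markers lie outside this rule and were named after their values were seen), and for each factor the genes most alike in pattern. Alternatives were DESeq2 1.42.0, RLE scaling, no filter, 1 fit of 8 groups, a replicate block, no fold minimum, both label kinds, and leaving out each library. No 2 letter-labelled libraries of a group agreed within sampling noise (lowest chi-square per degree of freedom 3.89), so each counts once. Pairs across groups were not compared, and such a difference does not show that libraries came from separate cultures. Date-like gene names (26) and repeated ones (2) stayed in the fits. Those genes are not named. Some genes that this rule would name are not reported here.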

Additional observations from a re-analysis of the deposited data

Results flagged for a closer look

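In the interaction test the IFN-γ effect differed with and without LE for Egr2 (2.90 on the log2 scale), Egr1 (2.49), Myc (2.21) and Jun (0.88). It differed with and without SE for Egr1 (1.86), Egr2 (1.64) and Myc (1.35), the last of which lost its call without any 1 of 4 libraries.

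The libraries with an HLA label, which the comparisons above do not use, held levels above those of their own PBS group in groups labelled without IFN-γ. Egr1 had a mean of 26.1 CPM in the 3 libraries labelled LE (18.4 to 40.4) and 16.9 CPM in those labelled PE, against 5.11 to 6.13 CPM in those labelled PBS. Myc had means of 29.0 CPM for LE and 21.9 CPM for PE, against 3.798 to 9.47 CPM for PBS. Egr2 had a mean of 8.43 CPM for LE, against 1.52 to 2.22 CPM for PBS. In these libraries the mean of the 20 IFN-γ targets, on the log2(CPM + 0.5) scale, was 7.16 to 7.26 for those labelled LE and 6.92 to 7.09 for those labelled PE, but 1.57 to 1.82 for those labelled IFNy and 1.58 to 1.72 for those labelled SE+IFNy. The group of each of these libraries is uncertain, since the order of the table's columns also sets them beside other groups than their labels do. Differences between label kinds were not tested.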

How the results depend on the processing

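The 47 called values of the 8 genes kept their direction and their call with RLE scaling, with no filter on low counts and with a replicate block, as did the 40 that 1 fit of 8 groups could give. With DESeq2 46 did, and the Myc interaction with SE had an adjusted p of 0.052. Leaving out 1 library at a time, 318 refits kept the call and 6 lost it: Jun with LE and IFN-γ against LE (2 libraries, range -0.72 to -0.54) and the Myc interaction with SE (4 libraries, range 0.86 to 1.70). The replicate numbers were not taken to pair the libraries: correlations of deviations between same-numbered libraries ran from -0.11 to 0.24. All 3 numbers exceeded 0.1 in 2 of 28 pairs of groups (LE with PE and SE with PE). Neither pair is a comparison made here, but these groups share fits. Near that mark were LE with SE (0.173, 0.1 and 0.187) and 2 compared pairs. These were IFNy with LE+IFNy (0.219, 0.0878 and 0.14) and PE with PE+IFNy (0.0802, 0.15 and 0.193). As a hint from the data, Myc, Junb, Fos and Egr1 were each lowest in replicate 1 of all 4 groups without IFN-γ. The replicate block gave 7 called genes for LE against PBS where there were 3 without it. Uncalled values changed sign and stayed uncalled in 68 instances.

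With both label kinds, 6 libraries a group and the label kind as a block, where 12 of the 24 HLA-labelled libraries go against their IFN-γ label and the order of the table's columns sets them beside other groups than their labels do, the groups of these libraries are uncertain, so the changes below do not measure how well a result repeats. In that fit 13 of the 47 kept their call, 30 lost it and 4 reversed: Jun to -0.16 for LE and IFN-γ against IFN-γ, Egr2 to -0.68 for LE and IFN-γ against LE, Myc to -1.18 for PE and IFN-γ against PE, and the Jun interaction with LE to -0.46. Uncalled Egr1 and Egr2 with LE against PBS turned to 1.10 (adjusted p = 0.026) and 1.06 (adjusted p = 0.043). The number of the 8 genes called became 1 for IFN-γ against PBS, 4 for LE and 1 for PE against PBS, 0 for SE and IFN-γ against IFN-γ, 0 for LE against SE and 1 for SE against PE with IFN-γ, 2, 0 and 3 for LE, SE and PE in Model B, and 0 for the LE and SE interactions. Without a fold minimum it became 1 for PE against PBS, 1 for PE in Model A and 6 for LE against SE.

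Over all genes, calls for LE against PBS were 3, but 57 without the filter, 7 in 1 fit and 1123 with both label kinds. Calls for PE in Model A were 80, but 31 with DESeq2, 152 without the filter, 24 in 1 fit and 1 with both label kinds. The PE interaction had 61 without the filter. With both label kinds the other counts were 40 for IFN-γ (2213 without), 0 for SE and 932 for PE against PBS (239 and 389), 1048 and 7 for LE and SE in Model A (1972 and 940), 374 and 439 for LE and SE against PE (2752 and 966), 664, 4 and 882 in Model B (4539, 3410 and 2715) and 1, 0 and 1 for the interactions (2471, 1043 and 0). Without a fold minimum the counts that moved by over 1.5 times ran from 1274 for PE in Model A to 8530 for LE in Model B. In Egr2 few counts per library limit precision.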

Other observations

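Mycn, a paralog of Myc, was abundant in this line and fell with IFN-γ (by 0.84 on the log2 scale), where Myc rose. It is set out here after its values were seen. It measured 606, 662 and 648 CPM with PBS, 354, 353 and 366 CPM with IFN-γ, 253, 244 and 264 CPM with LE and IFN-γ, a mean of 254.2 ± 10.3 CPM (SD, n = 3) with SE and IFN-γ, and 405, 377 and 402 CPM with PE and IFN-γ. The LE and SE libraries overlapped each other and lay below those with IFN-γ alone, and the PE libraries lay above them. Per kilobase of exon Mycn stood at 193.8 ± 8.7 CPM per kb (SD, n = 3) with PBS and 77.0 ± 3.0 CPM per kb with LE and IFN-γ, above Myc in both groups. Its log2 difference from IFN-γ alone was -0.49 ± 0.05 with LE and -0.50 ± 0.05 with SE, under the fold minimum (adjusted p = 3.5e-07 and 8.0e-07). The interaction with IFN-γ was called for both, at -0.65 ± 0.11 with LE and -0.60 ± 0.11 with SE (adjusted p = 7.8e-05 and 4.4e-04), and not for PE, at -0.17 ± 0.11.

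The other genes in the libraries with an HLA label are given by label, as values, and which group each of these libraries belongs to is uncertain, as said above. Fosl2 lay at 49.4 to 60.1 CPM in those labelled PBS and at 45.3 to 56.5 CPM in those labelled SE, and at 21.7 to 28.5 CPM for LE, 21.5 to 25.4 CPM for PE, 23.99 to 26.8 CPM for LE+IFNy and 22.1 to 24.7 CPM for PE+IFNy. Those labelled IFNy had 38.1 to 51.4 CPM and those labelled SE+IFNy 34.6 to 42.7 CPM. So 4 labels stood low, and 2 of them name no IFN-γ.

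Jun was lowest in those labelled LE+IFNy, at 17.97 to 19.3 CPM, and PE+IFNy, at 15.7 to 23.5 CPM, and lay at 27.8 to 33.1 CPM for PE. It was higher for PBS, at 37.8 to 55.1 CPM, for LE, at 41.8 to 72.3 CPM, and for SE+IFNy, at 53.1 to 64.1 CPM. Fos ranged from 9.99 CPM (PE+IFNy) to 26.2 CPM (IFNy), Junb from 88.7 to 181 CPM and Jund from 47.0 to 89.2 CPM over these 24 libraries. The levels of both label kinds were scaled separately and were not compared.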
